A study of Rattus norvegicus with 2 samples.

Results

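The insulin-like growth factor (IGF) binding proteins, Igf1 and the receptors for IGF1 and insulin were followed in fetal rat skin. The 10 genes were Igfbp1 to Igfbp7, Igf1, Igf1r and Insr, and their probes were taken from both arrays by gene name. This matched 9 of the 10 genes, with 15 probes on 42 spots. Igfbp7 carried only an accession on the arrays. It was identified through the authors' deposited table, which gives that accession the name Igfbp7_predicted, and with it the set held 16 probes on 43 spots. All 10 genes were among the 14791 named genes detected, and all 16 probes were well above background in both pools on both arrays.

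The skin came from Sprague Dawley rat fetuses at 2 stages. The later pool, labelled E19, combined 3 samples of embryonic day 18.5, and the earlier pool, labelled E16, combined 4 samples of embryonic day 16.5. Each of 2 two-colour Agilent rat arrays received both pools: E19 carried Cy5 and E16 Cy3 on the first array, with the dyes exchanged on the second. The arrays repeat the same pair of RNA pools, so each stage has 1 replicate and no test between the stages can be made. Every SD below is between 2 arrays unless it is given for repeat spots. All are technical, as is any lack of overlap between the pools.

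IGF1 is a secreted growth factor that acts through the receptor tyrosine kinase encoded by Igf1r, which is closely related to the insulin receptor encoded by Insr. In tissue and blood most IGF is held by binding proteins, which can withhold it from the receptor, carry it to cells or protect it from breakdown. Binding proteins 1 to 6 bind IGF with high affinity and the product of Igfbp7 binds it weakly. In skin, IGF1 is made mainly by dermal cells and the epidermis responds through Igf1r.

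Igfbp5, Igfbp2 and Igfbp4 were the members with lower signal in E19 by at least 2-fold on both arrays, the size used throughout as the rule for a difference between the pools. Across all detected genes 3.75% were lower in E19 by this rule and 4.14% were higher, and of the 10 members 3 were lower and 0 were higher. The median log2 ratio of E19 over E16 was -0.63 for the members, against 0.02 for all genes, and it lay below 0 for 7 of 10 members and 47.49% of all genes. These counts describe 1 pair of pools. In whole skin, fewer cells of a type and less RNA per cell cannot be told apart.

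Igfbp5 encodes a binding protein that attaches to extracellular matrix and is made by many mesenchymal cells. Its brighter probe, at chr9:72147294-72147353 on the minus strand in the coordinates printed on the arrays (build not given in the sources used here), had a log2 intensity of 11.97 and 11.91 in E19, against 14.01 and 13.81 in E16. The pools lay far apart on both arrays, and E19 had 0.254 times the E16 signal, with a log2 ratio of -1.98 ± 0.10 (SD of 2 arrays). A second, dim Igfbp5 probe at chr9:72150641-72150700 had 6.90 and 7.15 in E19, against 7.89 and 8.05 in E16, a log2 ratio of -0.94 ± 0.06. The 2 probes thus had the same direction and different sizes, and only the brighter was past 2-fold. The ratio of the dim probe depended on the background step: it was -1.40 with no offset added to the intensities and -1.80 from the scanner program's own processed signals.

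Igfbp2 encodes a binding protein that is abundant in fetal tissues and carries IGF2 as well as IGF1. Its probe at chr9:72114139-72114198 had log2 intensities of 10.68 and 10.45 in E19, against 12.25 and 12.29 in E16. The pools did not overlap, and the log2 ratio was -1.70 ± 0.19, or 0.308 times the E16 signal. Igfbp2 and Igfbp5 are neighbours on chromosome 9 in the RefSeq annotation of GRCr8, on opposite strands with 0 annotated genes between them. Both members of this neighbouring pair were lower in E19.

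Igfbp4 encodes a binding protein whose known action in cultured cells is mostly to inhibit IGF, and which is cut by the protease made from Pappa. Its bright probe at chr10:87848583-87848642 had log2 intensities of 15.59 and 14.75 in E19, against 16.79 and 16.44 in E16, and a log2 ratio of -1.44 ± 0.34. The 2 arrays gave -1.20 and -1.69, and leaving out saturated spots did not change the ratio of this probe. With arrays only centred on their median in place of the intensity-dependent correction, the same probe gave -0.26 and -2.51, and Igfbp4 no longer met the rule. The second Igfbp4 probe, at chr10:87843934-87843993, had 9.22 and 9.29 in E19, against 9.93 and 9.81 in E16, a log2 ratio of -0.62 ± 0.14. Both probes had lower signal in E19, by unequal amounts, and Igfbp4 also missed the rule when its probes were averaged, at a mean of -1.03 with the first array short of 2-fold.

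**Figure D1:**
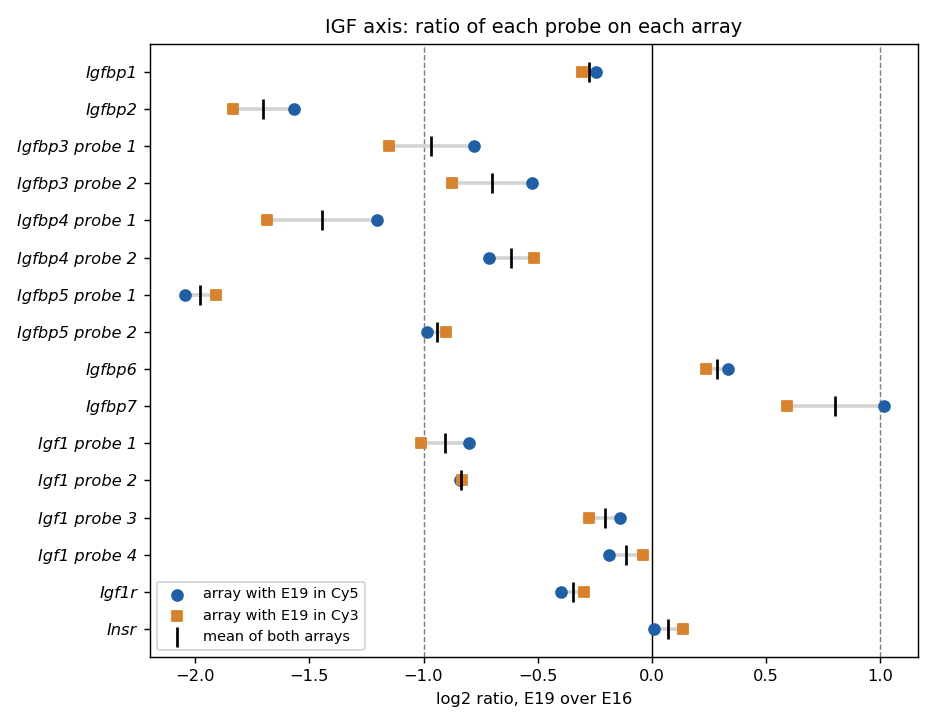
The horizontal axis is the log2 ratio of E19 over E16 and each row is a probe, with a circle for the array with E19 in Cy5, a square for the array with E19 in Cy3 and a tick for their mean; dashed lines mark 2-fold. Of 16 probes 13 lie below 0 on both arrays, and the brighter probes of Igfbp5 and Igfbp4 and the Igfbp2 probe lie beyond the left dashed line on both.

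The 250 bases before the annotated start of these 3 genes are shown because they were lower together in E19, with the same window of Igfbp1, a member that did not pass 2-fold, beside them. They are from RefSeq, build GRCr8, written 5′ to 3′ on the strand of the gene. Capitals mark matches on either strand to 3 motifs. The letters TATAAA are the classical core promoter element. The letters GGGCGG are known to be bound by SP1. The letters CAAAACA are the core of the insulin response element, to which FOXO factors are known to bind.
Igfbp5, chr9:81914188-81914437, minus strand: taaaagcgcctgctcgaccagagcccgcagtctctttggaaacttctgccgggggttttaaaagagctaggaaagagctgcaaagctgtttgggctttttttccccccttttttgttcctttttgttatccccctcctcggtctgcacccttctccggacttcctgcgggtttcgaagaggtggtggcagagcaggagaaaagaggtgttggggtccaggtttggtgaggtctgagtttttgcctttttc
Igfbp2, chr9:81864561-81864810, plus strand: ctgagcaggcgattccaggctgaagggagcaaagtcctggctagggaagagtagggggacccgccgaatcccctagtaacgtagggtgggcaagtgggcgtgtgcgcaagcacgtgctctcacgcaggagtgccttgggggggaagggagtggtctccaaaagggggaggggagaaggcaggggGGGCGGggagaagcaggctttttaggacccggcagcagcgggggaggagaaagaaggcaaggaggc
Igfbp4, chr10:84491221-84491470, plus strand: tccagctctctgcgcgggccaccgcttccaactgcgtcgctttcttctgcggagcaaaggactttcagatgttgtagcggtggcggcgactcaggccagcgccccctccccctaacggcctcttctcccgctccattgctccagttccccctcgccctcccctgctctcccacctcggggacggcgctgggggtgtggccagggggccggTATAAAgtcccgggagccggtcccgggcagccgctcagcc
Igfbp1, chr14:86261027-86261276, plus strand: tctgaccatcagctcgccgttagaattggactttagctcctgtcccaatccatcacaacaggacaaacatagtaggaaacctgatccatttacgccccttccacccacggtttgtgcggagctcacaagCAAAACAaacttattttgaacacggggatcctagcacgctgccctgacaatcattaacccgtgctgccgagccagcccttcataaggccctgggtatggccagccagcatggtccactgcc

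The 3 windows of the lower genes hold different letters. Igfbp4 has TATAAA, starting 40 bases before the start, Igfbp2 has GGGCGG, 66 bases before it, and Igfbp5 has none of the 3 motifs. Igfbp1 has CAAAACA 121 bases before its start, and no match overlaps another in these 4 windows. Among 33469 RefSeq promoter windows of the same length, TATAAA is in 12.9%, GGGCGG in 30.5% and CAAAACA in 5.5%. All 10 members were found in this table: 1 has TATAAA, 3 have GGGCGG (Igfbp2, Igfbp7 and Igf1r) and 2 have CAAAACA (Igfbp1 and Igf1). The motifs were chosen with the ratios known, and a match is a run of letters and not a bound site.

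Igfbp3 encodes the main carrier of IGF in blood and is also made in the dermis. Its brighter probe at chr14:87979639-87979698 had log2 intensities of 15.45 and 15.06 in E19, against 16.23 and 16.21 in E16. The pools did not overlap, but the log2 ratio of -0.97 ± 0.26 was past 2-fold on the second array alone, at -1.15, and -0.78 on the first. The other Igfbp3 probe, between chr14:87980756 and 87981650, was printed on 10 spots of each array and averaged 14.10 and 13.79 in E19, against 14.62 and 14.66 in E16, with a log2 ratio of -0.70 ± 0.25. Its 10 spots ranged between -0.61 and -0.46 on the first array and between -0.99 and -0.79 on the second. The difference between the arrays was thus larger than the spread of repeat spots, whose SD was 0.04 and 0.07.

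**Figure D2:**
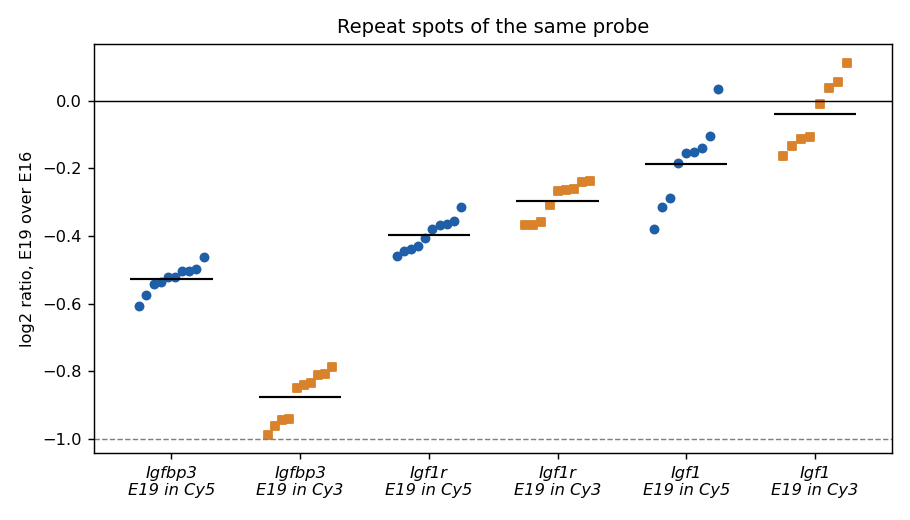
The vertical axis is the log2 ratio of E19 over E16 for each repeat spot of a probe, with black bars for the mean of an array and a dashed line at 2-fold lower; circles are the array with E19 in Cy5 and squares the array with E19 in Cy3. The Igfbp3 spots form separate groups on the 2 arrays (means of -0.53 and -0.88), the Igf1r spots all lie below 0, and the spots of the dim Igf1 probe spread across 0.

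Igfbp1 encodes a binding protein that the liver secretes and that insulin represses. Its probe at chr14:87973881-87973940 had 9.66 and 10.04 in E19, against 9.90 and 10.35 in E16, and these values overlapped between the pools. Within each array E19 was slightly below E16, with a log2 ratio of -0.28 ± 0.04. Igfbp1 and Igfbp3 are neighbours on chromosome 14 in GRCr8, with 0 annotated genes between them, and the ratio was -0.24 and -0.31 on the 2 arrays for Igfbp1, against -0.78 and -1.15 for Igfbp3. Liver and plasma protein genes ran the other way: 10 of 14 were higher in E19 and 1 lower, with Alb (albumin) at 4.18, Fga and Fgb (fibrinogen chains) at 2.41 and 2.39 and a summed normalised intensity of 38737 and 43301 in E19, against 12170 and 12004 in E16. All 14 were detected. Their part in the Igfbp1 value was not tested.

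Igfbp6 encodes a binding protein that prefers IGF2. Its probe at chr7:140964859-140964918 had 12.36 and 12.12 in E19, against 12.02 and 11.88 in E16, a log2 ratio of 0.28 ± 0.07. The values were higher in E19 on both arrays, by much less than 2-fold.

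Igfbp7 encodes a secreted protein of vessels and connective tissue. Its probe at chr14:33067515-33067574 had 15.43 and 15.31 in E19, against 14.41 and 14.72 in E16. It was the member with the highest ratio, at 0.80 ± 0.30, past 2-fold on the first array at 1.01 and short of it on the second at 0.59. The endothelial marker list had 0 of 10 genes past the rule in either direction and a median of 0.41, with Plvap at 0.86, Pecam1 at 0.67 and Tie1 at 0.60. Its summed intensity was 39607 and 45310 in E19, against 40452 and 34797 in E16. Without Kdr, the brightest of that list, the sums were 10008 and 10148 in E19, against 7471 and 7760 in E16. The part of this list in the Igfbp7 value was not tested.

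**Figure D3:**
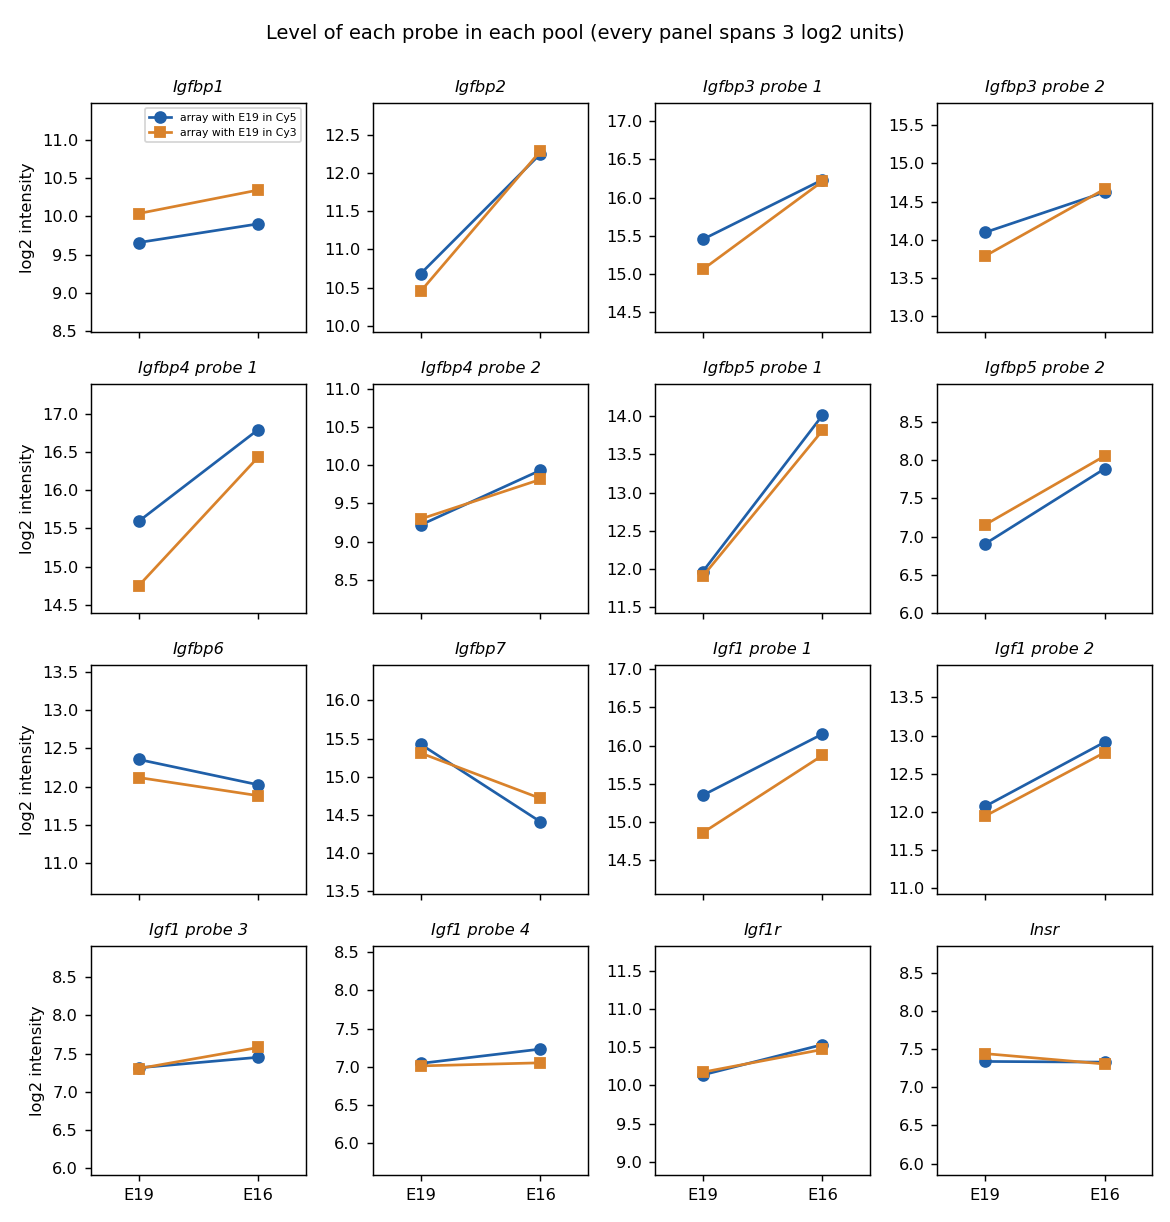
Each panel gives the normalised log2 intensity of a probe in E19 (left) and E16 (right), with circles for the array with E19 in Cy5 and squares for the array with E19 in Cy3; panels have different midpoints and the same span, so slopes can be compared and heights between panels cannot. The lines of the brighter Igfbp5 and Igfbp4 probes and of Igfbp2 slope by more than 2-fold on both arrays, Igfbp6 and Igfbp7 slope the other way, and in Igfbp1 the 2 arrays overlap between pools.

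The ligand Igf1 had 4 probes by gene name, and they fell into a bright pair with lower signal in E19 and a dim pair with ratios near 0. The brightest, at chr7:24624986-24625045, had 15.35 and 14.86 in E19, against 16.15 and 15.87 in E16, and a log2 ratio of -0.91 ± 0.15. The second, whose ends lie at 24552241 and 24557334 of chromosome 7, had 12.07 and 11.95 in E19, against 12.91 and 12.78 in E16, and a log2 ratio of -0.84 ± 0.01. These probes target regions 67.7 kb apart and differed by less than the SD of the first. Neither mean reached 2-fold.

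The dim pair lies between the ends of the second probe. The probe with its ends at 24554081 and 24557319 had 7.31 and 7.30 in E19, against 7.45 and 7.58 in E16, a log2 ratio of -0.21 ± 0.10. The probe directly before it, at chr7:24554021-24554080 with 10 spots an array, of which 9 and 8 were used, averaged 7.05 and 7.01 in E19, against 7.23 and 7.05 in E16, a log2 ratio of -0.11 ± 0.10. Its spots ranged between -0.38 and 0.03 on the first array and between -0.16 and 0.11 on the second, so the sign was not the same in every spot. As background, rat Igf1 transcripts begin at alternative leader exons that are spliced to a shared exon. The second bright probe and the first dim probe span 5094 and 3239 bases, against 60 bases for the 2 others, so each skips a stretch of genome, from first positions that differ to end positions 15 bases apart. The files annotate no exons for these probes, so they were not assigned to a transcript.

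The receptors differed less. Igf1r, at chr1:123067493-123067552, was printed on 10 spots an array and averaged 10.14 and 10.17 in E19, against 10.53 and 10.47 in E16. Its log2 ratio was -0.35 ± 0.07, and every spot used was below 0, between -0.46 and -0.32 on the first array and between -0.37 and -0.24 on the second. Insr, at chr12:3087143-3087201, had 7.34 and 7.44 in E19, against 7.33 and 7.30 in E16, a log2 ratio of 0.07 ± 0.09 that was smaller than its SD. The Insr direction depended on the scale: it was -0.14 when the arrays were centred on the spiked-in control RNAs.

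By the ratio of the brightest probe of each gene, the members ran upward as Igfbp5, Igfbp2, Igfbp4, Igfbp3, Igf1, Igf1r, Igfbp1, Insr, Igfbp6 and Igfbp7. Of the 9 pairs of neighbours in this order, 3 had array values that overlapped: Igfbp2 with Igfbp4, Igfbp3 with Igf1, and Igf1r with Igfbp1. Among all genes, 1.02% had a lower ratio than Igfbp5, 1.54% than Igfbp2, 2.29% than Igfbp4, 4.75% than Igfbp3 and 5.2% than Igf1. At the other end, 92.77% of genes had a lower ratio than Igfbp7. These percentages rank the brightest probes in single pools and carry no test. Averaged over all probes of the gene, Igfbp5 had -1.46, Igfbp4 -1.03, Igfbp3 -0.83 and Igf1 -0.52. Igfbp2, at -1.70, was then the lowest member.

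**Figure D4:**
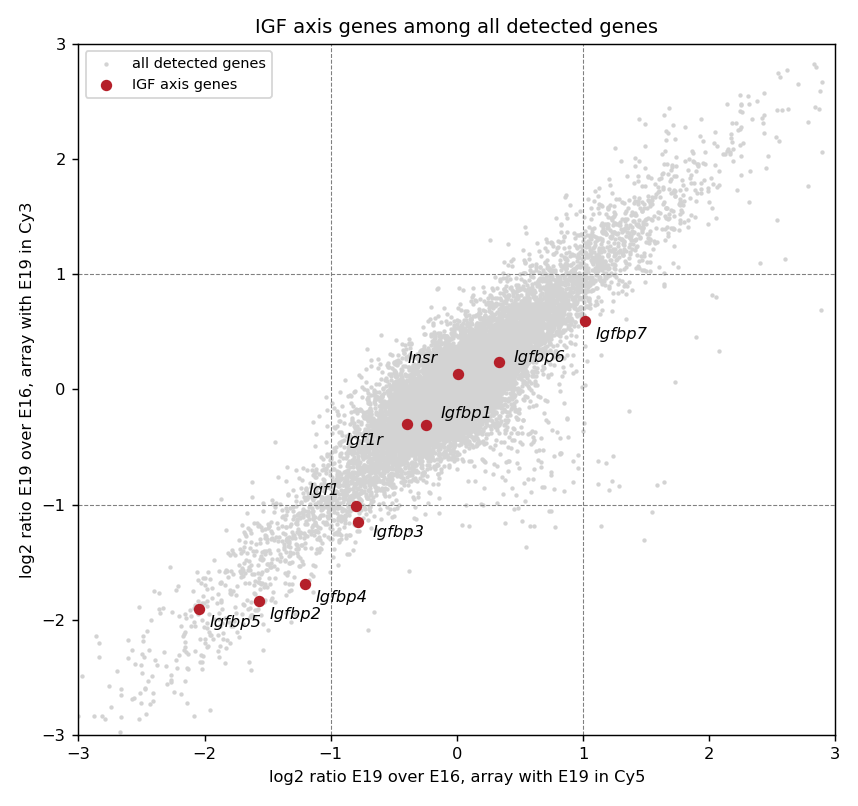
Each point is a gene, with its log2 ratio of E19 over E16 on the array with E19 in Cy5 (horizontal) and on the array with E19 in Cy3 (vertical); grey points are all detected genes, of which 59 lie outside the axes, red points the 10 members, and dashed lines mark 2-fold. Igfbp5, Igfbp2 and Igfbp4 lie beyond 2-fold lower on both axes, Igfbp3 and Igf1 on the vertical axis alone, and Igfbp7 beyond 2-fold higher on the horizontal axis alone.

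The authors' deposited table gave ratios in the same directions for all 10 members. On the log2 scale it had -1.77 for Igfbp2, and -2.02 and -1.79 for the sequences of the brighter and the dim Igfbp5 probe. For Igfbp4 it had -1.02 for the sequence that both probes share, so this value is not that of the bright probe alone. It had 0.77 for Igfbp7. For Igf1 the authors' deposited table had -0.87 for the sequence of the second bright probe and -0.42 for the sequence that the 3 other probes share, which combines the brightest with both dim ones. For Insr the authors' deposited table had 0.23.

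Among the other ligands and receptors of the system, 5 of 6 were detected and 0 passed the rule in either direction (median -0.23). Igf2, the main fetal IGF, had a log2 ratio of -0.66 on the first array and -1.93 on the second, a mean of -1.30 ± 0.90, so the arrays gave different sizes at this very bright probe. Igf2r, which clears IGF2, was at -0.65 ± 0.40 and the insulin receptor-related Insrr at -0.23 ± 0.11. Igfals, which holds IGF in its large complex in blood, was not detected.

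Of 8 genes for proteases that cut binding proteins and for their inhibitors, 6 were on the arrays and 5 were detected, with 1 lower in E19 and 0 higher (median -0.20). The lower one was Pappa, the protease that cuts the product of Igfbp4, with -1.06 and -1.15 on the 2 arrays, a mean of -1.11 ± 0.06. Stc1, an inhibitor of that protease, was at -0.57 ± 0.13, and the proteases Htra1 and Adam9 were both at 0.51, with SDs of 0.06 and 0.24. Pappa and its substrate gene Igfbp4 were both lower in E19.

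Secreted proteins with an IGFBP-like domain were detected for 9 of 9 genes, with 2 lower and 0 higher (median -0.61). Igfbpl1 had the lowest ratio of any gene among the members and the 6 other pathway lists, at -2.93 ± 0.23, and Esm1, an endothelial proteoglycan, was at -1.60 ± 0.23. The CCN genes, which encode matrix-associated signalling proteins, did not pass the rule: Ccn3 was at -1.12 ± 0.27, Ccn2 at -0.80 ± 0.06 and Ccn4 at -0.61 ± 0.46. Of the whole list 8 genes lay below 0 and 1 above it. The 1 above was Ccn5, named after its values were seen, at 0.59 ± 0.12. The 3 genes for proteins that bind Igf2 mRNA had 0 past the rule and a median of -0.28, and Igf2bp2 in that list had -1.42 and -0.76 on the 2 arrays.

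Inside the cell, 30 of 31 genes for adaptors and for the PI3K, AKT and mTOR steps were detected, with 1 lower, 0 higher and a median of -0.01. Grb10, an adaptor that restrains both receptors, was the lower one, at -1.29 ± 0.41, barely past 2-fold on the first array and at -1.59 on the second. Pik3cb was at 0.85 ± 0.04 and Irs3 at 0.61 ± 0.13, both short of the rule. The 8 genes of growth hormone signalling, which drives Igf1 in liver, had 0 past the rule and a median of 0.15, with Stat5a at -0.47 ± 0.42, Socs2 at -0.41 ± 0.22 and Stat5b at 0.23 ± 0.14.

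**Figure D5:**
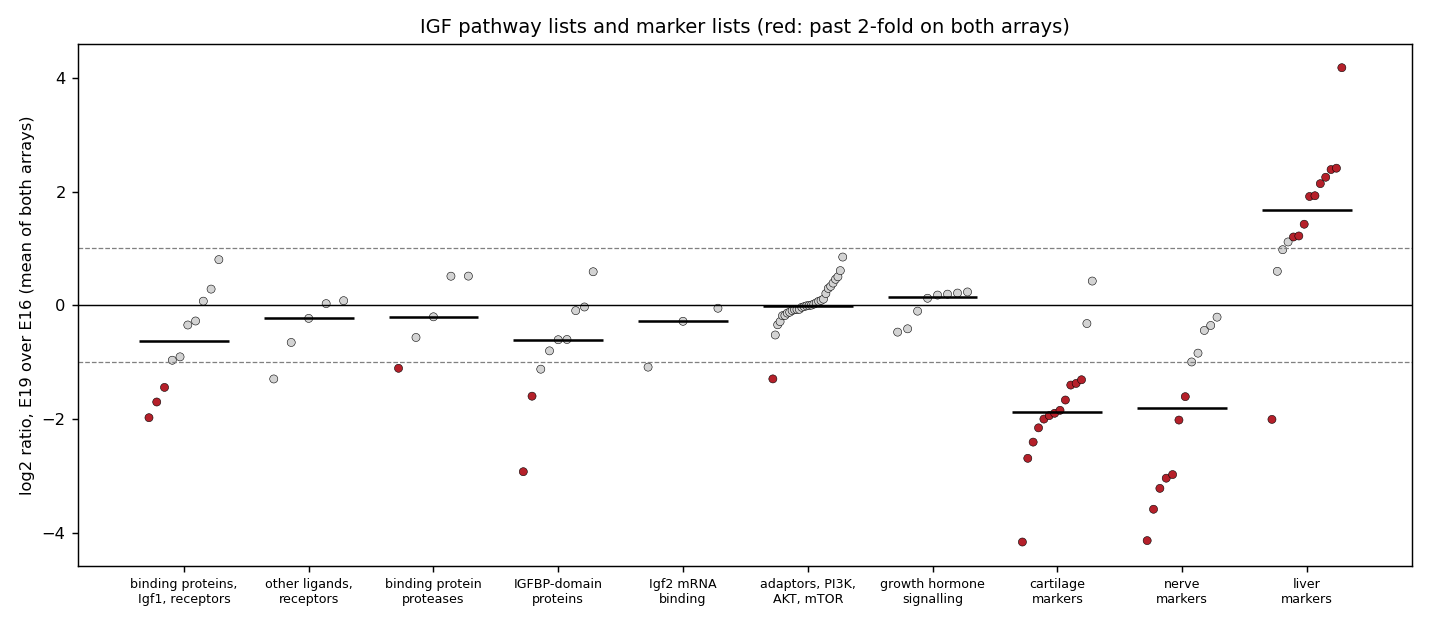
Each point is a detected gene, with the mean log2 ratio of E19 over E16 over both arrays on the vertical axis, grouped by list along the horizontal axis; bars are list medians, red points passed 2-fold the same way on both arrays, and dashed lines mark 2-fold. The members' median is -0.63, the signalling list's is -0.01, and the cartilage and nerve markers reach medians of -1.87 and -1.81 while liver markers reach 1.67.

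Markers of other tissues differed between the pools beside the lower members. Of 14 cartilage markers, all detected, 12 were lower in E19 and 0 higher, with Cnmd at -4.16, Col2a1 at -2.69 and Col9a2 at -2.41 and a summed intensity of 16770 and 15257 in E19, against 58530 and 56491 in E16. Of 12 neuron and Schwann cell markers, all detected, 7 were lower and 0 higher, led by Stmn2 at -4.14, Ina at -3.59 and Snap25 at -3.22, with sums of 14329 and 14979 in E19, against 62948 and 62926 in E16. The list medians were -1.87 and -1.81. The part of these lists in the values of Igfbp5, Igfbp2, Igfbp4, Igfbp3 and Igf1 was not tested.

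Bone-forming cells had 3 of 7 detected markers lower and 0 higher, with Ibsp at -3.42 and Alpl at -1.95 among the lower. Spp1, which was chosen after its values were seen, was at 0.90 and 0.60 on the 2 arrays and is the brightest of the list. The sums were 74556 and 75009 in E19, against 52912 and 62828 in E16, and without Spp1 they were 2540 and 2306 in E19, against 14275 and 14712 in E16. Sp7 was not detected. Skeletal muscle had 3 of 12 lower, the early regulators Myod1 at -2.48 and Myf5 at -1.65 among them, and 2 higher, with the fetal myosin Myh8 at 1.80. The muscle sums were 468080 and 328289 in E19, against 539218 and 546115 in E16, and without Myh3, the brightest of that list, they overlapped, at 320834 and 272169 in E19, against 299284 and 307516 in E16. Adipocyte markers ran the other way, with 9 of 10 detected higher, Adipoq at 4.87, Fabp4 at 4.81 and Ucp1 at 3.66, and sums of 115541 and 118218 in E19, against 9528 and 11831 in E16. The part of these lists in the members' values was not tested.

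The markers of skin itself were present in both pools. Of 9 keratinocyte markers 7 were on the arrays and detected, with 2 higher in E19 and a median of 1.13. Krt14 was at 3.27 and 0.74 on the 2 arrays, Krt1 at 2.89 and 0.69 and Krt10 at 2.60 and 1.13, so the arrays differed widely at these bright probes. All 8 dermal fibroblast markers were detected, with 1 higher, Dcn at 1.36 ± 0.04, and 0 lower (median 0.62). Dpt was at 0.97 ± 0.08 and Col3a1 at 0.90 ± 1.18. The summed intensity of the fibroblast list was 722296 and 616253 in E19, against 324262 and 500854 in E16, and that of the keratinocyte list 1167497 and 1256848 in E19, against 263644 and 710048 in E16.

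Across the series, each array had 45018 spots, and the share of spots well above background ran between 71.47% and 74.29% over pools and arrays. All genes together gave 613 higher and 554 lower in E19, and 3 genes followed the dye and not the pool past 2-fold. The median SD between the 2 arrays over all genes was 0.11, and among the members Igfbp4, Igfbp7, Igfbp3, Igfbp2 and Igf1 were above it. With median centring in place of the intensity-dependent correction, 6 of 10 members had opposite signs on the 2 arrays, namely Igfbp1, Igfbp3, Igfbp6, Igfbp7, Igf1 and Insr. The bright probe of Igfbp3 then had 0.10 and -1.98, that of Igf1 0.06 and -1.81, and Igfbp7 1.73 and -0.16. The number of arrays and of pools limits the precision of every value above.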

How the data were processed

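Fetal rat skin RNA was measured on 2 two-colour Agilent arrays that exchange the dyes of the same 2 pools. Per the file headers, the authors' scanner files hold mean spot intensity and local background per channel, made with Agilent Feature Extraction 9.5.1.1 (also listed in the submitters' processing notes), and a log10 ratio of Cy5 over Cy3. The authors' deposited table holds a log10 ratio for each of 36824 sequences; how both arrays were combined is not given in the sources used here, and its direction was read from its correlation with each array. Here, intensities were corrected by normexp (offset 50) and loess in limma 3.58.1 (R 4.3.3), control spots at weight 0, outlier spots dropped and saturated spots kept. Ratios were turned to E19 over E16, and spots, then arrays, were averaged. Levels are log2 intensities after loess and Aquantile scaling. Genes with a probe well above background for a pool on both arrays were detected, and the brightest such probe stood for each gene. Later steps used Python 3.11.15, pandas 2.3.3, numpy 2.4.6 and matplotlib 3.10.9. The procedure was tested on simulated data whose changed probes did not reach the intensities of the brightest member probes. The members, lists, motifs and named genes (all members; of each list those past 2-fold and up to 3 others with the largest ratio, and up to 3 of each marker list) were chosen with earlier results of these data known. A gene that this rule names is not reported here. Alternatives covered background, normalisation, centring, flags, filters, fold and single arrays. Sums of marker lists without their brightest gene were added after seeing the data.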

Additional observations from a re-analysis of the deposited data

Results flagged for a closer look

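A probe that the gene name rule did not reach gave a difference of 2-fold. It is listed under the accession S43941 and described on the arrays as exon 6 of Igf1, and it lies outside the 16 member probes. Its log2 intensity was 11.91 and 11.81 in E19, against 12.97 and 12.88 in E16, and its log2 ratio was -1.06 on both arrays (SD 0.0046). Both pools were well above background on both arrays and did not overlap. A further probe, described as similar to Igfbp4, was not well above background in either pool.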

How the results depend on the processing

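No paired analysis was possible because both arrays hold the same 2 pools and each array already contrasts them. The members' means of both arrays kept their sign under all 9 alternative processings except Insr, which was -0.14 with spike-in centring. Igfbp6 fell to 0.07 with that centring. The 9 are not separate checks: Feature Extraction's processed signals and its own log ratio gave the same member values, and leaving out saturated spots changed none. With median centring, 6 of 10 members had opposite signs on the single arrays. Spike-in centring lowers every ratio by 0.22. The members' median of -0.63 was thus -0.84 with spike-in centring, which lowers the median of all genes equally. It was -0.38 from the authors' deposited table, where the Igf1 value of -0.42 combines bright and dim probes. Of 3 members lower in E19, Igfbp2 and Igfbp5 remained past 2-fold in every alternative but the 3-fold rule, which left 1 (Igfbp5). Igfbp4 was lost with median centring and with the mean of all probes (2 lower each). Spike-in centring added Igf1 (4 lower). Without replicate 1 there were 5 lower and 0 higher members, and without replicate 2 there were 3 lower and 1 higher; single arrays carry an uncancelled dye effect. At 1.5-fold 5 members were lower and 1 higher. Over all genes, those higher and lower in E19 numbered 367 and 439 with median centring and 390 and 809 with spike-in centring. From both Feature Extraction's processed signals and its own log ratio they were 1014 and 889. The authors' deposited table gave 1191 and 999, from a combined ratio per sequence and so without the need for 2-fold on each array. The numbers higher and lower were 1414 and 1138 for 1.5-fold and 178 and 230 for 3-fold. Without replicate 1 they were 775 and 686, and without replicate 2, 740 and 679. For these counts the cause was not tested. Leaving aside single arrays, single ratios moved by less than the SD of the arrays in 112 comparisons and by more in 36. Dim probes are compressed by the offset, and with 1 pool per stage no biological spread was measured.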
